A study of Mus musculus with 26 samples.

Results

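The loss of estrogen-related receptor beta (ERR beta, encoded by Esrrb) was examined in mouse embryonic stem cells (ESCs) that carried no ectopic receptor. Of the 26 libraries of the study, the 8 titled KO/Mock or WT/Mock were compared. The wild-type mock group held clones 5-2 and 5-5 and the ERR beta knockout mock group held clones 12-1 and 12-3, with 2 libraries each. The genotype labels read wild type for the former and ERR beta knockout for the latter, and neither group expressed an ectopic protein. Cells of both groups were seeded at 1600 cells on laminin in N2B27-LIF/PD/CH medium, and both received 2 µg/ml doxycycline for 3 days, the agent that induces the receptor constructs of the other groups. The 2 libraries of a clone were summed, so each group has 2 replicates, and no label says whether the clones of a genotype came from separate parental cultures. Every value in CPM below is a counts-per-million value scaled by TMM, given for clones 5-2 and 5-5 and then for clones 12-1 and 12-3.

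ERR beta is an orphan nuclear receptor: it has no known natural hormone and binds DNA at an extended half-site, TCAAGGTCA, through its zinc fingers. In ESCs it belongs to the transcription factor network of the naive state together with Nanog, Klf4 and Tfcp2l1. The related receptors ERR alpha and ERR gamma are best known as regulators of mitochondrial and energy metabolism genes in heart and muscle.

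The knocked-out gene was measured first. Esrrb (chromosome 12, 86361117 to 86521628, mm10, plus strand) was read at 598 and 608 CPM in the libraries of clone 5-2 and at 577 and 544 CPM in those of clone 5-5. The libraries of clone 12-1 gave 270.2 and 284 CPM, and both libraries of clone 12-3 gave 276 CPM. Every knockout library lay below every wild-type library (log2 fold change -1.07 ± 0.07 (SE), edgeR adjusted p = 3.42e-05), and the knockout level was 47.6% of the wild-type level. The deposited counts are per gene, so they do not show which exons the remaining Esrrb reads cover, and the deleted part of the gene is not given in the sources used here. Libraries held 21276790 to 25233391 counts, and the 45S ribosomal RNA entry took 1.19% to 2.64% of them. Of 12 ESC markers all were tested and their summed level was 4015 and 4358 CPM in the wild-type clones and 4081 and 4108 CPM in the knockout clones, with 3 of them called higher and 4 lower. Fibroblast markers summed to 4.41 to 4.85 CPM over the 4 clones, with Postn and Fap at 0. Markers of primitive endoderm summed to 10.1 and 10.5 CPM in the wild-type and to 2.48 and 3.07 CPM in the knockout clones, with 4 of 8 tested members called lower and Ttr at 0. Chromosome 14, which was lower as a whole in the knockout clones, holds 2 of these 4, Gata4 and Sox7, and Gata4 made up most of the sum in wild type. Outside chromosome 14 the sums were 2.06 and 1.85 CPM in the wild-type and 0.933 and 1.41 CPM in the knockout clones. The 2 of 6 tested members called lower there became 0 without clone 5-2, 12-1 or 12-3 and 1 without clone 5-5. Markers of mesoderm and primitive streak summed to 16.7 and 24.6 CPM in the wild-type and to 67.2 and 61.7 CPM in the knockout clones, with 2 of 6 tested members called higher. These calls depended on single clones, as did those of primitive endoderm outside chromosome 14. Trophoblast markers summed to 33.1 and 36.2 CPM against 55.1 and 45.7 CPM, and neural markers to 65.2 and 60.5 CPM against 91.7 and 83.7 CPM, and each of these lists had 1 member called higher and 1 lower. In bulk RNA, fewer cells of a type and less RNA per cell cannot be told apart. The part that these levels have in the results below was not tested.

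Of 24421 genes in the table, 15238 passed the filter on low counts. The edgeR quasi-likelihood test called 5702 of them (37.4%) at an adjusted p below 0.05, with 2747 higher and 2955 lower in the knockout clones. Outside chromosome 14, 5356 of 14725 tested genes were called (36.4%), and 2734 were called higher (18.6%) and 2622 lower (17.8%). At least 2-fold changes were fewer among the higher genes, 475, than among the lower genes, 982. The clones of the groups did not overlap for any of the 5702 called genes. With 2 clones per group such separation comes with the call, so it is no added evidence for a called gene described below. The count rested in part on single clones: it was 2283 without clone 5-2, 2739 without clone 12-1, 3299 without clone 12-3 and 4655 without clone 5-5. With the 8 libraries as units and the library number as a block, 8950 genes were called. The direction of the calls differed with expression level. Among 5 equal bins of genes by level, numbered from the lowest, 7.2% were called higher and 14.9% lower in bin 1. In bin 2, at a log2 CPM of 0.24 to 3.25, 10.8% were called higher and 27.1% lower, and in bin 3 16.1% and 22.9%. In the highest bin 33.4% were called higher and 8.9% lower. The median log2 fold change was -0.21 in bin 1, -0.23 in bin 2, -0.04 in bin 3 and 0.13 in the highest bin. Lists of highly expressed genes below are to be read beside the highest bin, and lists of genes at lower levels beside bins 2 and 3. Each count of called list members below, in the direction that most members took or in both where both reached 5, is followed by its value without each clone whose absence moved it by over 1.5 times.

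**Figure D1:**
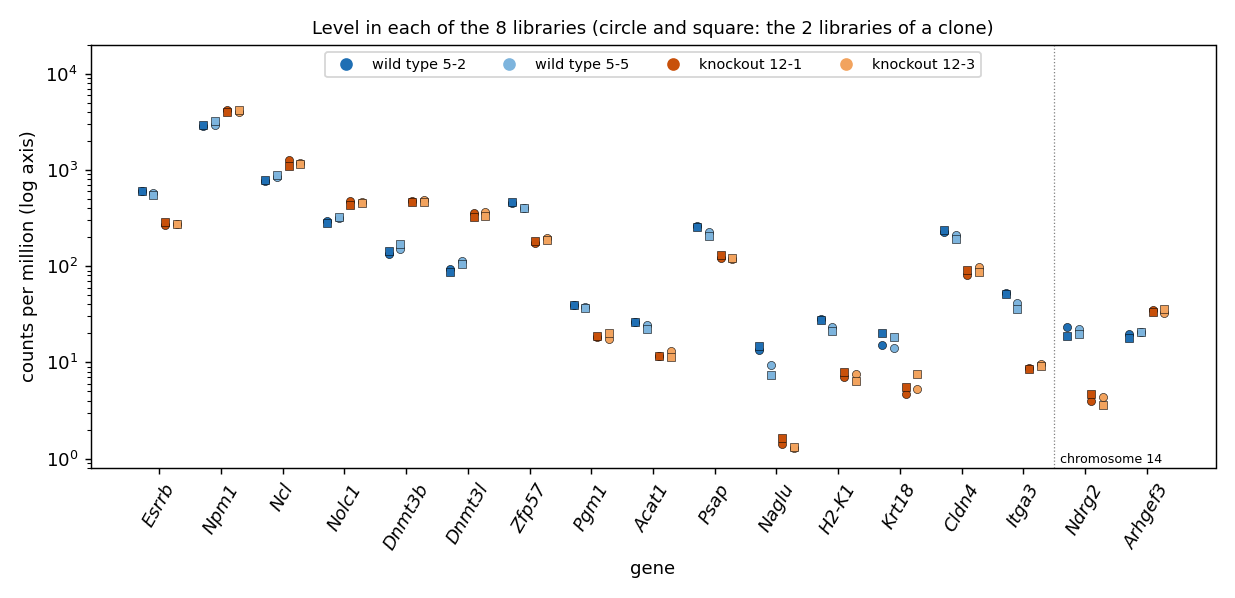
Level in CPM (log axis) of 17 genes described in the text in each of the 8 libraries, circles and squares marking the 2 libraries of a clone and colours the clones. For every gene drawn, the 4 knockout libraries lie on one side of the 4 wild-type libraries, and Esrrb is near 276 CPM in the knockout clones.

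The ERR element TCAAGGTCA was searched, on both strands, in RefSeq promoters reaching from 250 bases before to 50 bases after each start site (GRCm38.p6, the same assembly as mm10). Of the 15238 tested genes, 11119 were matched by symbol. Outside chromosome 14 the element was present in the promoters of 7 of 1954 genes called lower (0.358%), 8 of 2072 called higher (0.386%) and 20 of 6745 not called (0.297%), and in 0.423% of all 32851 promoters of the table. Of the 35 tested genes with the element, 7 were called lower and 8 higher. Among genes called with at least a 2-fold change, it was found for Acsl6 and Tmem191c, which were lower, and for Msrb2, Clec2d and Sgk1, which were higher. These 5 genes were chosen after their values were seen. Psap, the precursor of the saposins that help lysosomal enzymes break down sphingolipids, was the only gene named by the rule on named genes with the element before its start. Windows around the element are shown so that the flanks can be compared between genes that fell and genes that rose. Each is written on the strand of the gene, with the element or its reverse complement TGACCTTGA in capitals:
Psap, chr10:60277469-60277497, plus strand: gttcggcgccTGACCTTGAtttaatcacc
Acsl6, chr11:54303647-54303675, plus strand: gcctccaaccTGACCTTGAgcattcttat
Tmem191c, chr16:17276104-17276132, plus strand: tagcaaaggaTGACCTTGAactcctgatc
Msrb2, chr2:19371507-19371535, plus strand: tccgcgaagaTCAAGGTCAagaggagcaa
Clec2d, chr6:129180491-129180519, plus strand: gtgtggctccTGACCTTGAaatgcgtttc
Sgk1, chr10:21978599-21978627, plus strand: aggaccgggcTGACCTTGAacttttgaag
Sgk1 at its other start site, chr10:21985990-21986018, plus strand: atctccgagtTCAAGGTCAtccgggatta
The element was 140 bases upstream of the Psap start and 54 and 95 bases upstream of the Sgk1 starts. Msrb2, a methionine sulfoxide reductase, was at 19.12 and 30.2 CPM in the wild-type clones and 79.3 and 74.8 CPM in the knockout clones (log2 fold change 1.64 ± 0.20 (SE), edgeR adjusted p = 0.000371). Acsl6, a long-chain acyl-CoA synthetase, was at 13.1 and 8.14 CPM in the wild-type clones and 3.94 and 3.22 CPM in the knockout clones (log2 fold change -1.57 ± 0.42 (SE), edgeR adjusted p = 0.0144), and its adjusted p was 0.13 without clone 5-2, 0.0629 without clone 12-1 and 0.0942 without clone 12-3. Tmem191c had the largest of the 5 changes, -1.995 ± 0.24 (SE), and Clec2d and Sgk1 rose by 1.19 and 1.21 on the log2 scale. The adjusted p of Clec2d was 0.183 without clone 5-2, 0.0571 without clone 5-5 and 0.222 without clone 12-3, and that of Sgk1 was 0.103 without clone 5-2 and 0.0518 without clone 12-1. A match of these letters is a description of the window and no evidence of binding.

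Of 54 tested ribosome biogenesis factors outside chromosome 14, the nucleolar proteins that process ribosomal RNA and assemble ribosomal subunits, 43 were called higher and 1 lower, with a median log2 fold change of 0.37 against 0.01 over all tested genes there. The count called higher was 27 without clone 5-2. Nolc1, a nucleolar phosphoprotein, was at 289 and 321 CPM in the wild-type clones and 458 and 457 CPM in the knockout clones (log2 fold change 0.58 ± 0.08 (SE), edgeR adjusted p = 0.000449). Ncl, which encodes nucleolin, was at 782 and 868 CPM in the wild-type clones and 1186 and 1168 CPM in the knockout clones (log2 fold change 0.51 ± 0.07 (SE), edgeR adjusted p = 0.000509), with both knockout clones above both wild-type clones. Rrp12, an export factor of pre-ribosomes, rose by 0.43 on the log2 scale. Npm1, which encodes the nucleolar protein nucleophosmin, was at 2886 and 3056 CPM in the wild-type clones and 4071 and 4099 CPM in the knockout clones (log2 fold change 0.46 ± 0.07 (SE), edgeR adjusted p = 0.000851). The RNA helicase gene Ddx21 rose by 0.54 and Mybbp1a by 0.38. All 6 genes were higher in both knockout clones than in either wild-type clone. On chromosome 14 the list has 1 tested member, Gnl3, a nucleolar GTPase gene at 343 and 371 CPM in the wild-type clones and 294 and 303 CPM in the knockout clones. Its log2 fold change was -0.26, and its call as lower was lost with any 1 clone left out. Against the median shift of its chromosome, -0.61 on the log2 scale, it was called above, edgeR adjusted p = 0.00725. That call was lost without clone 5-2.

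In the highest bin by level, 33.4% of tested genes outside chromosome 14 were called higher, with a median of 0.13. Beside this, 27 of 84 tested cytosolic ribosomal protein genes (32.1%) were called higher and 0 lower by edgeR, with a median of 0.14. The number called higher was 7 without clone 5-2, 14 without clone 5-5, 11 without clone 12-1 and 7 without clone 12-3. At an unadjusted p below 0.05 the edgeR test also had 0 lower, and DESeq2 called 0 lower. Rpl10l, an autosomal copy of the X-linked Rpl10, stood apart from the rest at 9.07 and 9.39 CPM in the wild-type clones and 34.96 and 33.8 CPM in the knockout clones (log2 fold change 1.90 ± 0.19 (SE), edgeR adjusted p = 0.000155). Rps12 rose by 0.46 and Rplp0 by 0.30 on the log2 scale. Reads of ribosomal protein genes can be split with their many processed copies, so single values are uncertain. Among 74 tested mitochondrial ribosomal protein genes, 26 (35.1%, beside the same 33.4%) were called higher and 2 lower (median 0.14). The number called higher was 5 without clone 5-2 and 8 without clone 12-1. Mrpl44 (0.34 ± 0.06), Mrps18b (0.39 ± 0.07) and Mrpl20 (0.57 ± 0.10) had the smallest p, values being log2 fold change ± SE. The 3 members on chromosome 14, Mrpl57, Mrps16 and Mrpl52, were all lower, with log2 fold changes of -0.82, -0.81 and -0.52. The median of that chromosome was -0.61. Tested against it, the edgeR adjusted p was 0.0418 for Mrpl57, 0.0736 for Mrps16 and 0.536 for Mrpl52. The call of Mrpl57 against this median was lost with any 1 clone left out. Of 58 tested translation factors, 29 were called higher and 4 lower (median 0.20). The number called higher was 8 without clone 5-2, 12 without clone 12-1 and 17 without clone 12-3. Eif3b, a subunit of the initiation factor that recruits the small ribosomal subunit, was at 150.4 and 166 CPM in the wild-type clones and 252 and 234 CPM in the knockout clones (log2 fold change 0.62 ± 0.09 (SE), edgeR adjusted p = 0.000544). Eef1d, an exchange factor of translation elongation, rose by 0.43 on the log2 scale and Eif2b2 by 0.57.

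Splicing factors, proteasome genes and Mediator subunits were also called higher more often than lower, as was the highest bin by level. In that bin 33.4% were called higher and 8.9% lower, and over all tested genes outside chromosome 14 18.6% and 17.8%. The shares called higher were 41.9% for proteasome genes and 37.5% for Mediator subunits. Whether the 3 lists differed from other genes of their level was not tested. Of 88 tested splicing factors, 44 were called higher and 3 lower (median 0.24). The number called higher was 21 without clone 5-2 and 27 without clone 12-1. Esrp1, an epithelial splicing regulator, was at 26.9 and 25.7 CPM in the wild-type clones and 50.1 and 48.3 CPM in the knockout clones (log2 fold change 0.90 ± 0.11 (SE), edgeR adjusted p = 0.000338). Prpf19, a core factor of the activated spliceosome, rose by 0.54 on the log2 scale, and the RNA-binding protein genes Hnrnpm and Hnrnpr by 0.47 and 0.64. On chromosome 14, Mbnl2, which encodes a muscleblind-like splicing regulator, was at 61.9 and 41.3 CPM in the wild-type clones and 11.7 and 13.5 CPM in the knockout clones (log2 fold change -2.03 ± 0.29 (SE), edgeR adjusted p = 0.000762). Hnrnpc was at 474 and 492 CPM in the wild-type clones and 506 and 523 CPM in the knockout clones and was not called against wild type. Against the median shift of the chromosome, Mbnl2 was called below (edgeR adjusted p = 0.00413) and Hnrnpc above (edgeR adjusted p = 0.000101). The call of Mbnl2 against this shift was lost without clone 5-2. Of 43 tested proteasome genes, 18 were called higher and 2 lower (median 0.15), with 6 without clone 5-2, 7 without clone 12-1 and 7 without clone 12-3 called higher. Psmc4, Psmc2 and Psmc3, ATPase subunits of the regulatory particle, rose by 0.46, 0.41 and 0.36 on the log2 scale. Psmb9, the interferon-inducible catalytic subunit, went the other way, from 2.18 and 1.42 CPM to 0.432 and 0.411 CPM (log2 fold change -2.09 ± 0.39 (SE), edgeR adjusted p = 0.00252). Of 32 tested Mediator subunits, 12 were called higher and 1 lower (median 0.10), with 7 without clone 5-2 called higher. Med22 (0.61 ± 0.08), Med14 (0.56 ± 0.08) and Med23 (0.46 ± 0.06) had the smallest p among them.

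**Figure D2:**
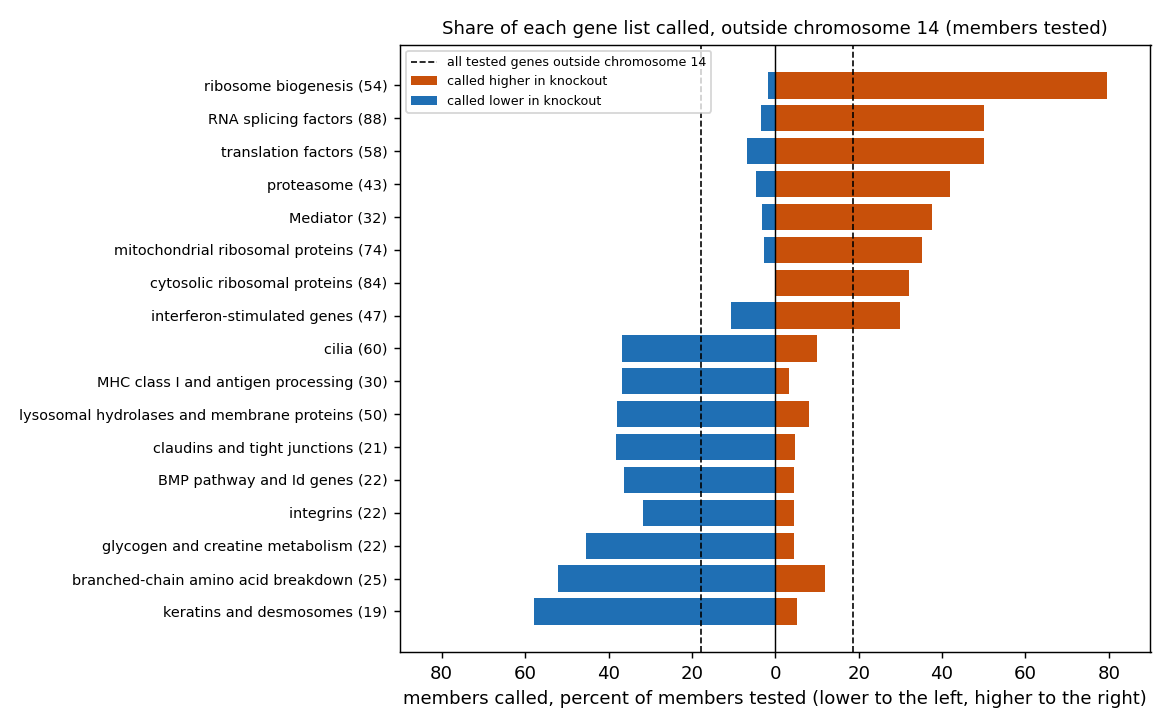
Percent of the tested members of 17 gene lists called higher (right) and lower (left) in the knockout clones, outside chromosome 14, with the number tested in parentheses. Dashed lines mark the shares over all tested genes outside chromosome 14, 18.6% higher and 17.8% lower, and ribosome biogenesis lies furthest to the right.

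Several catabolic and storage pathways had more members called lower than higher, as had bins 2 and 3 by level. The shares called lower were 45.5% for glycogen and creatine metabolism and 52.0% for branched-chain amino acid breakdown. Over all tested genes outside chromosome 14 the share was 17.8%, and in bin 2 it was 27.1%. Of 22 tested genes of glycogen and creatine metabolism, 10 were called lower and 1 higher (median -0.50), with 6 without clone 5-2 and 6 without clone 12-1 called lower. Pgm1, the phosphoglucomutase family gene of that symbol on chromosome 5, was at 39.4 and 37.2 CPM in the wild-type clones and 18.5 and 18.7 CPM in the knockout clones (log2 fold change -1.04 ± 0.10 (SE), edgeR adjusted p = 9.41e-05). Gys1, glycogen synthase, was at 41.2 and 38.01 CPM in the wild-type clones and 22.3 and 21.9 CPM in the knockout clones (log2 fold change -0.84 ± 0.09 (SE), edgeR adjusted p = 0.000206). Phkb, a regulatory subunit of phosphorylase kinase, fell to 34.6 and 37.8 CPM from 63.6 and 54.9 CPM. Ckmt1, the mitochondrial creatine kinase, was at 29.1 and 23.8 CPM in the wild-type clones and 12.4 and 11.8 CPM in the knockout clones (log2 fold change -1.13 ± 0.24 (SE), edgeR adjusted p = 0.0044). In each of these genes both knockout clones were below both wild-type clones.

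Of 25 tested genes of branched-chain amino acid breakdown, 13 were called lower and 3 higher (median -0.25), with 5 without clone 5-2, 5 without clone 12-1 and 7 without clone 12-3 called lower. Acat1, the thiolase of the last step of isoleucine breakdown, was at 26.5 and 23.5 CPM in the wild-type clones and 11.8 and 12.4 CPM in the knockout clones (log2 fold change -1.05 ± 0.12 (SE), edgeR adjusted p = 0.000277). Ppm1k, the phosphatase that activates the branched-chain ketoacid dehydrogenase, was at 31.5 and 25.1 CPM in the wild-type clones and 12.2 and 13.7 CPM in the knockout clones (log2 fold change -1.12 ± 0.17 (SE), edgeR adjusted p = 0.000976). Hibch and Aldh6a1, both of the valine branch, fell, with log2 fold changes of -0.72 and -0.81. On chromosome 14 the list has Pcca, a subunit of propionyl-CoA carboxylase, at 27.4 and 22.5 CPM in the wild-type clones and 9.53 and 10.97 CPM in the knockout clones, and its difference from the median shift of its chromosome was -0.67 on the log2 scale, edgeR adjusted p = 0.0185, with 0.149 without clone 5-2, 0.132 without clone 12-1 and 0.0574 without clone 12-3. The serine, glycine and folate pathway was split, with 8 of 26 tested members called higher and 5 lower (median 0.01), with 1 without clone 5-2, 2 without clone 12-1 and 4 without clone 12-3 called higher and 3 without clone 5-2, 3 without clone 12-1 and 3 without clone 12-3 called lower. Amt, of the glycine cleavage system, and Aldh1l1, which oxidizes formyl-tetrahydrofolate, fell, with log2 fold changes of -0.43 and -0.91. Shmt1, the cytosolic serine hydroxymethyltransferase, rose from 142 and 147 CPM to 188 and 199 CPM (log2 fold change 0.42 ± 0.07 (SE), edgeR adjusted p = 0.00124).

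Lipid genes were mixed. The shares called lower were 27.3% for cholesterol synthesis and 34.8% for fatty acid synthesis and desaturation. Over all tested genes outside chromosome 14 the share was 17.8%, and in bin 2 by level it was 27.1%. Of 22 tested cholesterol synthesis genes, 6 were called lower and 2 higher (median -0.09). The number called lower was 2 without clone 5-2 and 2 without clone 12-3. Cyp51, the lanosterol demethylase, was at 236.3 and 206 CPM in the wild-type clones and 142 and 141 CPM in the knockout clones (log2 fold change -0.65 ± 0.10 (SE), edgeR adjusted p = 0.000852), and Insig1, which retains the sterol sensor in the endoplasmic reticulum, fell by 0.80 on the log2 scale. Of 23 tested genes of fatty acid synthesis and desaturation, 8 were called lower and 2 higher (median -0.12), with 3 without clone 5-2, 3 without clone 12-1 and 3 without clone 12-3 called lower. Elovl7, an elongase of long fatty acids, was at 20.6 and 16.997 CPM in the wild-type clones and 3.94 and 4.35 CPM in the knockout clones (log2 fold change -2.18 ± 0.24 (SE), edgeR adjusted p = 0.000195), while Acsl1 changed by -0.38 on the log2 scale.

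Of 50 tested lysosomal hydrolases and membrane proteins, 19 were called lower and 4 higher (median -0.23). The number called lower was 8 without clone 5-2, 7 without clone 12-1 and 12 without clone 12-3. Laptm4b, a lysosomal transmembrane protein, was at 56.7 and 47.5 CPM in the wild-type clones and 12.01 and 11.5 CPM in the knockout clones (log2 fold change -2.15 ± 0.25 (SE), edgeR adjusted p = 0.000269). Naglu, which degrades heparan sulfate, was at 14.1 and 8.39 CPM in the wild-type clones and 1.52 and 1.30 CPM in the knockout clones (log2 fold change -2.99 ± 0.41 (SE), edgeR adjusted p = 0.000574). Psap, whose promoter window is printed above, was at 260.3 and 217 CPM in the wild-type clones and 126 and 120.5 CPM in the knockout clones (log2 fold change -0.95 ± 0.15 (SE), edgeR adjusted p = 0.0011). In all 3 genes the knockout clones lay below the wild-type clones. Tfe3, a transcription factor of lysosomal genes included in the list, went the other way and rose from 66.7 and 73.0 CPM to 113 and 107.1 CPM. On chromosome 14, Ctsb, which encodes cathepsin B, fell by 0.81 on the log2 scale and was not called against the median shift of that chromosome. Among 25 tested iron and heme genes, 7 were called higher and 2 lower (median 0.14), with 3 without clone 5-2 and 3 without clone 12-1 called higher. Tfrc, the transferrin receptor, was at 222 and 264 CPM in the wild-type clones and 421 and 423 CPM in the knockout clones (log2 fold change 0.80 ± 0.13 (SE), edgeR adjusted p = 0.0011), and Ireb2, an iron-sensing regulator, rose by 0.57 on the log2 scale.

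Genes of epithelial structure had the highest share called lower of the lists of cell structure and adhesion. Of 19 tested keratins and desmosome genes, 11 were called lower and 1 higher (median -0.85). The number called lower was 4 without clone 5-2, 4 without clone 12-1 and 6 without clone 12-3. Krt18, a keratin of simple epithelia, was at 17.6 and 16.5 CPM in the wild-type clones and 5.12 and 6.32 CPM in the knockout clones (log2 fold change -1.57 ± 0.26 (SE), edgeR adjusted p = 0.00127). The desmosomal cadherin gene Dsg2 was at 15.6 and 14.96 CPM in the wild-type clones and 7.92 and 9.0003 CPM in the knockout clones, and the plaque protein gene Dsp fell by 1.46 on the log2 scale. Of 21 tested claudins and tight junction genes, 8 were called lower and 1 higher (median -0.16), with 5 without clone 5-2, 5 without clone 12-1 and 5 without clone 12-3 called lower. Jam2, a junctional adhesion molecule, was at 58.5 and 78.8 CPM in the wild-type clones and 21.1 and 18.6 CPM in the knockout clones (log2 fold change -1.79 ± 0.21 (SE), edgeR adjusted p = 0.000306). Cgn, which encodes cingulin, fell by 1.16 on the log2 scale, and Cldn4, claudin 4, was at 230.2 and 200.3 CPM in the wild-type clones and 86.7 and 92.9 CPM in the knockout clones (log2 fold change -1.26 ± 0.17 (SE), edgeR adjusted p = 0.000505).

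Of 22 tested integrins, 7 were called lower and 1 higher (median -0.38), with 3 without clone 5-2 and 2 without clone 12-1 called lower. Itga5, the alpha subunit of the fibronectin receptor, was at 42.2 and 32.8 CPM in the wild-type clones and 9.05 and 11.6 CPM in the knockout clones (log2 fold change -1.86 ± 0.17 (SE), edgeR adjusted p = 7.18e-05). Itga3, a laminin receptor subunit, was at 51.9 and 38.6 CPM in the wild-type clones and 8.69 and 9.41 CPM in the knockout clones (log2 fold change -2.32 ± 0.25 (SE), edgeR adjusted p = 0.000179). Itga1, a collagen receptor subunit, went the other way, from 4.71 and 6.61 CPM to 23.8 and 20.5 CPM. Of 43 tested basement membrane and collagen genes, 7 were called higher and 8 lower (median -0.33), with 4 without clone 5-2, 4 without clone 12-1 and 4 without clone 12-3 called lower and 2 without clone 5-2, 4 without clone 12-1 and 4 without clone 12-3 called higher. With all clones, 16.3% of the basement membrane and collagen genes were called higher and 18.6% lower, beside 18.6% and 17.8% of all tested genes outside chromosome 14. The laminin subunits differed in direction: Lamb1 rose by 1.29 and Lamb2 changed by -0.77 on the log2 scale. The summed primitive endoderm markers, given above with and without chromosome 14, were also lower in the knockout clones, and their part in these values was not tested.

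Cadherins did not move as one. Of 16 tested classical cadherin and catenin genes, 5 were called higher and 2 lower (median 0.60). Those called lower numbered 1 without clone 5-2, 1 without clone 5-5, 1 without clone 12-1 and 1 without clone 12-3. Ctnna1, alpha-catenin, fell by 0.41, and Cdh13 rose from 0.160 and 0.206 CPM to 0.773 and 1.02 CPM. Of 41 tested protocadherins, 24 were called higher and 12 lower, but these counts are not independent. The 22 tested genes of the Pcdhg cluster were all called higher within a narrow range of 0.25 to 0.36 on the log2 scale. They share 41.7% to 47.2% of their exonic bases on the same strand, and reads in shared exons were counted for each gene. Their levels, 83.7 to 102 CPM in wild type and 106.9 to 122 CPM in the knockout, are therefore not independent of each other. Of 14 tested Pcdha genes, 12 were called lower, at 0.395 to 0.567 CPM in wild type and 0.144 to 0.233 CPM in the knockout, and leaving out any clone left 0 to 2 of the list called lower.

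Of 40 tested smooth and striated muscle contractile genes, 15 were called lower and 4 higher (median -0.23), with 3 without clone 5-2, 6 without clone 12-1 and 6 without clone 12-3 called lower. Des, the muscle intermediate filament desmin, was at 35.8 and 22.1 CPM in the wild-type clones and 2.78 and 4.15 CPM in the knockout clones (log2 fold change -3.06 ± 0.36 (SE), edgeR adjusted p = 0.000301). Tagln, transgelin, was at 6.11 and 2.23 CPM in the wild-type clones and 0.387 and 0.454 CPM in the knockout clones (log2 fold change -3.30 ± 0.52 (SE), edgeR adjusted p = 0.00103), and its wild-type clones differed from each other by more than its knockout clones. Of 60 tested cilia genes, 22 were called lower and 6 higher (median -0.32), with 11 without clone 5-2 and 12 without clone 12-1 called lower and 1 without clone 5-2, 1 without clone 12-1 and 3 without clone 12-3 called higher. Ift57 and Ift140, parts of the transport trains of the cilium, fell, with log2 fold changes of -0.78 and -0.54. Dnah8, an axonemal dynein heavy chain, went the other way, from 114 and 137 CPM to 207 and 207 CPM (log2 fold change 0.72 ± 0.12 (SE), edgeR adjusted p = 0.00127). On chromosome 14, Ift88 was at 26.05 and 25.1 CPM in the wild-type clones and 14.56 and 13.2 CPM in the knockout clones. It was not called against the median shift of that chromosome, edgeR adjusted p = 0.128.

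**Figure D3:**
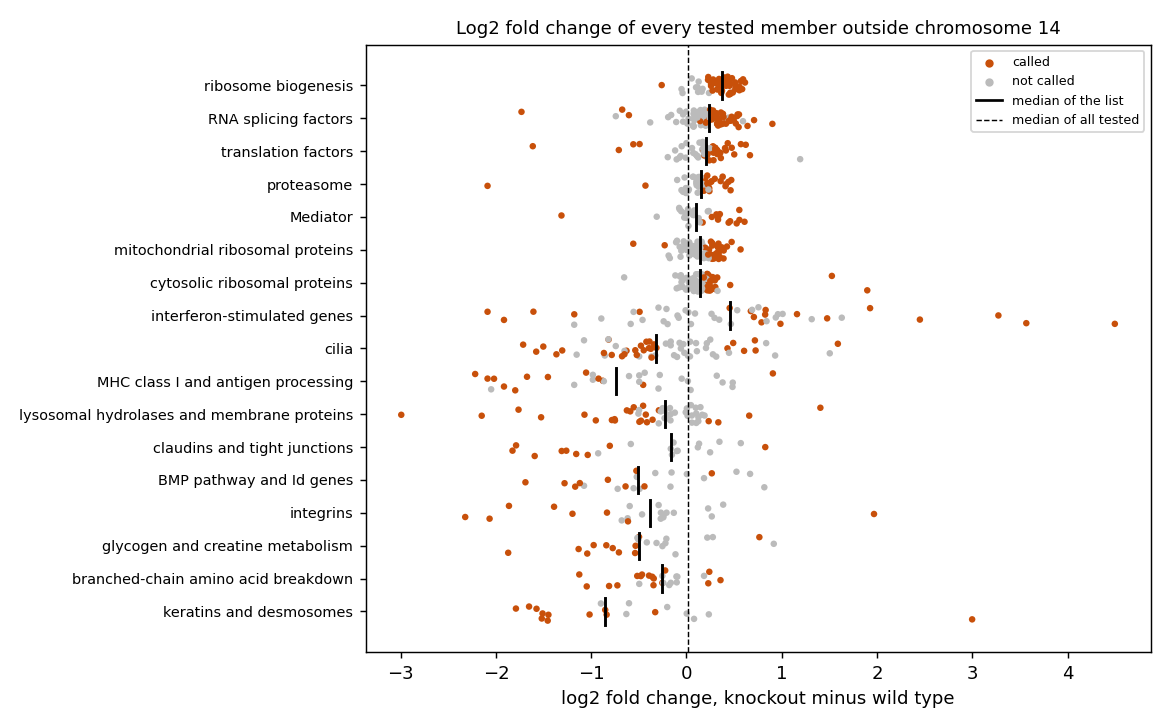
Log2 fold change (knockout minus wild type) of every tested member of 17 gene lists outside chromosome 14, with called genes in orange, the median of each list as a black bar and the median of all tested genes as a dashed line. Members of the ribosome biogenesis list form a narrow group near 0.37, whereas interferon-stimulated genes spread over several log2 units in both directions.

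Of 22 tested genes of the BMP pathway, 8 were called lower and 1 higher (median -0.51), with 5 without clone 5-2 and 4 without clone 12-1 called lower. Smad1, which carries the BMP signal to the nucleus, was at 58.5 and 56.3 CPM in the wild-type clones and 39.9 and 39.9 CPM in the knockout clones (log2 fold change -0.53 ± 0.09 (SE), edgeR adjusted p = 0.0016). Bmp8a and the inhibitory Smad6 fell, with log2 fold changes of -1.69 and -1.12. The 3 tested members on chromosome 14 were all called lower. Of these, Bmp4 was at 27.1 and 30.3 CPM in the wild-type clones and 9.96 and 11.1 CPM in the knockout clones and its difference from the median shift of its chromosome was -0.84 on the log2 scale, edgeR adjusted p = 0.0138, with 0.0545 without clone 5-2, 0.0618 without clone 5-5, 0.0987 without clone 12-1 and 0.057 without clone 12-3. Bmpr1a, a type I receptor, was at 190.3 and 196 CPM in the wild-type clones and 126 and 129 CPM in the knockout clones and differed from that shift by 0.01 on the log2 scale, edgeR adjusted p = 0.916. Of 38 tested genes of the TGF-beta, Nodal and activin pathway, 13 were called lower and 5 higher (median -0.21), with 6 without clone 5-2 and 5 without clone 12-3 called lower and 1 without clone 5-2 and 2 without clone 12-1 called higher. Acvr1b, an activin and Nodal receptor, was at 50.1 and 48.4 CPM in the wild-type clones and 28.1 and 28.1 CPM in the knockout clones (log2 fold change -0.81 ± 0.08 (SE), edgeR adjusted p = 0.000145). Tgfbr3, the co-receptor betaglycan, rose from 3.40 and 5.83 CPM to 23.9 and 20.2 CPM.

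Of 35 tested Notch pathway genes, 6 were called higher and 11 lower (median 0.01). Those called lower numbered 7 without clone 5-2, 7 without clone 5-5, 7 without clone 12-1 and 6 without clone 12-3. Maml2, a coactivator of the Notch complex, was at 5.17 and 9.33 CPM in the wild-type clones and 31.3 and 31.3 CPM in the knockout clones (log2 fold change 2.11 ± 0.23 (SE), edgeR adjusted p = 0.000179). Jag1, a Notch ligand, was at 30.02 and 32.5 CPM in the wild-type clones and 68.6 and 61.6 CPM in the knockout clones (log2 fold change 1.06 ± 0.14 (SE), edgeR adjusted p = 0.00039), and the receptor gene Notch4 fell by 1.33 on the log2 scale. Among 8 tested Wnt ligands outside chromosome 14, 3 were called higher and 2 lower, with 1 without clone 5-2 and 1 without clone 12-1 called higher. Wnt8a was at 3.10 and 3.79 CPM in the wild-type clones and 17.2 and 12.5 CPM in the knockout clones (log2 fold change 2.11 ± 0.43 (SE), edgeR adjusted p = 0.00375), and Wnt9a was at 2.20 and 0.989 CPM in the wild-type clones and 0.341 and 0.281 CPM in the knockout clones (log2 fold change -2.35 ± 0.48 (SE), edgeR adjusted p = 0.00354), so 2 members of 1 family moved in opposite directions. Among 47 tested growth factor ligands and receptor kinases, 10 were called higher and 14 lower, with 6 without clone 5-2 and 6 without clone 12-3 called higher and 4 without clone 5-2, 6 without clone 12-1 and 6 without clone 12-3 called lower. Kitl, the ligand of the Kit receptor, was at 0.759 and 0.701 CPM in the wild-type clones and 7.69 and 6.27 CPM in the knockout clones (log2 fold change 3.25 ± 0.25 (SE), edgeR adjusted p = 3.42e-05), and Ntrk2 was at 0.120 and 0.185 CPM in the wild-type clones and 1.71 and 1.41 CPM in the knockout clones (log2 fold change 3.33 ± 0.35 (SE), edgeR adjusted p = 0.000163).

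Of 30 tested genes of MHC class I and antigen processing, 11 were called lower and 1 higher (median -0.73). The list also took in H2-Ab1, a class II gene, which is among those called lower. The number called lower was 5 without clone 5-2, 6 without clone 12-1 and 7 without clone 12-3. H2-K1, a classical class I heavy chain, was at 28.1 and 22.4 CPM in the wild-type clones and 7.46 and 7.05 CPM in the knockout clones (log2 fold change -1.80 ± 0.30 (SE), edgeR adjusted p = 0.00144). H2-D1 was at 18.6 and 17.6 CPM in the wild-type clones and 6.85 and 6.34 CPM in the knockout clones, but 61.1% of its exonic bases are also assigned to H2-L, so the copies cannot be told apart here. Of 47 tested interferon-stimulated genes, 14 were called higher and 5 lower (median 0.45), with 6 without clone 5-2, 9 without clone 12-1 and 8 without clone 12-3 called higher and 3 without clone 5-2 and 3 without clone 12-3 called lower. Gbp4, a guanylate-binding protein, was at 0.1998 and 0.371 CPM in the wild-type clones and 2.89 and 2.66 CPM in the knockout clones (log2 fold change 3.27 ± 0.39 (SE), edgeR adjusted p = 0.000282). Irgm1, an immunity-related GTPase, was at 2.10 and 3.40 CPM in the wild-type clones and 32.01 and 33.1 CPM in the knockout clones (log2 fold change 3.57 ± 0.46 (SE), edgeR adjusted p = 0.000443). Ifitm1, also a germ cell and pluripotent cell gene, rose by 0.99, and Oasl1 changed by -1.61 on the log2 scale. Psmb9 belongs to both lists and to the proteasome list and fell. Of 32 tested NF-kB and TNF receptor genes, 10 were called lower and 2 higher (median -0.06), with 2 without clone 5-2, 3 without clone 12-1 and 4 without clone 12-3 called lower. Nfkb1 and Icam1 fell, with log2 fold changes of -0.82 and -1.40. Of 18 tested retinoid genes, 5 were called higher and 1 lower (median 0.18), with 3 without clone 5-2, 3 without clone 5-5 and 3 without clone 12-1 called higher. Crabp2, a retinoic acid carrier, was at 3.596 and 3.77 CPM in the wild-type clones and 15.5 and 12.9 CPM in the knockout clones (log2 fold change 1.95 ± 0.27 (SE), edgeR adjusted p = 0.000603).

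Chromatin genes gave the following. Of 24 tested genes of DNA methylation and demethylation, 8 were called higher and 5 lower (median 0.04), with 5 without clone 5-2 and 5 without clone 12-1 called higher and 1 without clone 5-2, 2 without clone 12-1 and 2 without clone 12-3 called lower. Dnmt3l, the cofactor of the de novo methyltransferases, was at 89.9 and 109 CPM in the wild-type clones and 342 and 349 CPM in the knockout clones (log2 fold change 1.79 ± 0.19 (SE), edgeR adjusted p = 0.000179). Dnmt3b, a de novo methyltransferase, was at 138 and 162 CPM in the wild-type clones and 471 and 475 CPM in the knockout clones (log2 fold change 1.65 ± 0.25 (SE), edgeR adjusted p = 0.000996). Zfp57, which keeps imprints methylated, was at 455.95 and 402 CPM in the wild-type clones and 178 and 192 CPM in the knockout clones (log2 fold change -1.21 ± 0.13 (SE), edgeR adjusted p = 0.000204). Of 18 tested histone deacetylases and sirtuins, 7 were called lower and 3 higher (median -0.23), with 4 without clone 5-2, 4 without clone 5-5, 3 without clone 12-1 and 4 without clone 12-3 called lower. Hdac7 was at 9.17 and 6.98 CPM in the wild-type clones and 1.001 and 0.736 CPM in the knockout clones (log2 fold change -3.22 ± 0.39 (SE), edgeR adjusted p = 0.000348), and Sirt3, the mitochondrial deacetylase, fell by 1.03 on the log2 scale. Of 43 tested piRNA and meiosis genes, 11 were called lower and 6 higher (median -0.46), with 7 without clone 5-2 and 7 without clone 12-1 called lower and 3 without clone 5-2 called higher. Fkbp6, a co-chaperone of the piRNA pathway, was at 25.2 and 25.1 CPM in the wild-type clones and 7.89 and 7.70 CPM in the knockout clones (log2 fold change -1.69 ± 0.21 (SE), edgeR adjusted p = 0.000383), and Ddx4 and Sycp3 fell, with log2 fold changes of -1.06 and -1.34.

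Among developmental regulators, 8 of 23 tested Hox, Cdx, Meis and Pbx genes were called lower and 2 higher (median -0.32), with 3 without clone 5-2, 4 without clone 5-5, 1 without clone 12-1 and 2 without clone 12-3 called lower. Hoxa7 was at 1.22 and 1.05 CPM in the wild-type clones and 0.182 and 0.195 CPM in the knockout clones (log2 fold change -2.57 ± 0.39 (SE), edgeR adjusted p = 0.000907), whereas Cdx2, which is also in the trophoblast list, was at 0.799 and 1.38 CPM in the wild-type clones and 5.55 and 3.46 CPM in the knockout clones (log2 fold change 2.05 ± 0.47 (SE), edgeR adjusted p = 0.00712) with an adjusted p of 0.082 without clone 5-2 and 0.0606 without clone 12-1. Of 46 tested cyclins, CDKs and CDK inhibitors, 11 were called higher and 5 lower (median 0.06), with 3 without clone 5-2, 3 without clone 12-1 and 3 without clone 12-3 called higher. Ccnd3, a G1 cyclin, was at 101 and 95.9 CPM in the wild-type clones and 49.7 and 49.2 CPM in the knockout clones (log2 fold change -0.99 ± 0.11 (SE), edgeR adjusted p = 0.000172), and Ccnd1, another G1 cyclin, was at 174 and 204 CPM in the wild-type clones and 283 and 262 CPM in the knockout clones (log2 fold change 0.53 ± 0.09 (SE), edgeR adjusted p = 0.00177). Ccnb2 fell by 0.48 and Cdk12 rose by 0.70 on the log2 scale. Among transporters, 9 of 47 tested monocarboxylate, sugar and zinc transporters were called higher and 10 lower, with 2 without clone 5-2, 4 without clone 5-5, 2 without clone 12-1 and 4 without clone 12-3 called higher and 6 without clone 5-2 and 6 without clone 12-1 called lower. Slc2a3, a neuronal-type glucose transporter, was at 2998 and 2704 CPM in the wild-type clones and 1208 and 1330.5 CPM in the knockout clones (log2 fold change -1.17 ± 0.10 (SE), edgeR adjusted p = 5.29e-05). Of 18 tested aquaporins, annexins and S100 proteins, 6 were called lower and 1 higher, and 2 without clone 5-2 and 1 without clone 12-1 were called lower. S100a13 was at 4.75 and 3.87 CPM in the wild-type clones and 1.09 and 1.19 CPM in the knockout clones (log2 fold change -1.92 ± 0.38 (SE), edgeR adjusted p = 0.00317).

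Of the genes of respiratory complexes II to V, 10.6% were called higher and 6.38% lower, beside 18.6% and 17.8% of all tested genes outside chromosome 14. Complex I had 6 of 44 tested members called higher and 5 lower (median 0.05), and respiratory complexes II to V had 5 of 47 higher and 3 lower (median 0.02). The mitochondrial carriers had 8 of 42 higher and 7 lower. The counts called higher were 1 without clone 5-2, 3 without clone 12-1 and 2 without clone 12-3 for complex I, 0 without clone 5-2, 3 without clone 5-5, 2 without clone 12-1 and 0 without clone 12-3 for complexes II to V and 4 without clone 5-2 and 5 without clone 12-1 for the carriers. The counts called lower were 3 without clone 5-2, 3 without clone 12-1 and 2 without clone 12-3 for complex I, 2 without clone 5-2, 1 without clone 12-1 and 1 without clone 12-3 for the carriers and, for complexes II to V, 1 without clone 5-2 and 0 without clone 12-1. Of 33 tested peroxisome genes, edgeR called 0 higher (1 at an unadjusted p below 0.05, 0 by DESeq2) and 7 lower, with 4 without clone 12-1 called lower. Of 64 replication-dependent histones, edgeR called 0 higher (2 at an unadjusted p below 0.05, 0 by DESeq2) and 10 lower. The shares called lower were 21.2% of the peroxisome genes and 15.6% of the histones, near the 17.8% of all tested genes outside chromosome 14. For the histones 4 were called higher without clone 5-5, and 5 without clone 5-2, 6 without clone 5-5 and 4 without clone 12-3 were called lower.

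Families were also formed from the letters of the symbol. Beside the Pcdhg and Pcdha genes described above, the highest shares called higher were 6 of 9 for the Commd genes, 6 of 9 for the Utp genes of the small-subunit processome, 7 of 11 for the Srsf splicing factors and 24 of 38 for the Ddx RNA helicases. The highest shares called lower were 8 of 13 for the Dennd genes, 6 of 10 for the Man mannosidase genes, 5 of 9 for the Itga integrin subunits and 7 of 13 for the Ift genes. The medians were 0.29 for Commd, 0.34 for Utp, 0.27 for Srsf and 0.28 for Ddx, and -0.38, -0.57, -0.62 and -0.39 for the 4 lower families in the same order. These families were picked for their shares, so the values are a description.

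Below the 10 largest changes in each direction, the genes at ranks 11 to 25 by log2 fold change, outside chromosome 14 and where the mean log2 CPM reached 1, were of varied function. Among the higher genes, Has3, a hyaluronan synthase, was at 2.02 and 2.64 CPM in the wild-type clones and 19.3 and 15.7 CPM in the knockout clones (log2 fold change 2.91 ± 0.41 (SE), edgeR adjusted p = 0.000676). Fgfr2, a fibroblast growth factor receptor, was at 0.459 and 0.886 CPM in the wild-type clones and 5.41 and 4.35 CPM in the knockout clones (log2 fold change 2.86 ± 0.50 (SE), edgeR adjusted p = 0.00184). Zp3, an egg coat protein, was at 1.84 and 2.95 CPM in the wild-type clones and 17.2 and 14.8 CPM in the knockout clones (log2 fold change 2.74 ± 0.28 (SE), edgeR adjusted p = 0.000163). These 3 genes were low in wild type and several-fold higher in both knockout clones. Cyp1a1, a target of the aryl hydrocarbon receptor, was at 1.54 and 1.38 CPM in the wild-type clones and 9.01 and 7.98 CPM in the knockout clones. Cdh2, N-cadherin, rose from 0.519 and 1.07 CPM to 4.69 and 3.50 CPM. Among the lower genes, Mme, the membrane peptidase neprilysin, was at 19.6 and 17.1 CPM in the wild-type clones and 2.96 and 3.46 CPM in the knockout clones (log2 fold change -2.51 ± 0.19 (SE), edgeR adjusted p = 3.42e-05). Rnf157, an E3 ubiquitin ligase, was at 42.2 and 28.9 CPM in the wild-type clones and 6.32 and 7.07 CPM in the knockout clones (log2 fold change -2.41 ± 0.24 (SE), edgeR adjusted p = 0.000146). Vwf, von Willebrand factor, was at 12.5 and 9.13 CPM in the wild-type clones and 1.91 and 2.01 CPM in the knockout clones, and Atf3, a stress-induced transcription factor, was at 9.33 and 5.89 CPM in the wild-type clones and 1.43 and 1.45 CPM in the knockout clones. For both genes the knockout clones lay below the wild-type clones. Cpt1b, a carnitine palmitoyltransferase of muscle, was at 20.8 and 11.4 CPM in the wild-type clones and 2.34 and 3.05 CPM in the knockout clones, but 94.8% of its exonic bases are also assigned to the Chkb-Cpt1b readthrough gene. Rhox5, an X-linked homeobox gene, was at 139 and 191 CPM in the wild-type clones and 29.4 and 32.1 CPM in the knockout clones, and its adjusted p was 0.0661 without clone 5-2, 0.0773 without clone 5-5, 0.109 without clone 12-1 and 0.0881 without clone 12-3.

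Chromosome 14 genes were set apart because the chromosome as a whole was lower in both knockout clones. The median over 386 genes of the chromosome whose mean log2 CPM reached 1 was -0.575 in clone 12-1 and -0.572 in clone 12-3 relative to the wild-type mean on the log2 scale. No other chromosome had a median beyond -0.0314 or 0.0722 in a knockout clone. Chromosome 14 took 5.36% and 5.58% of the counts in clones 5-2 and 5-5 and 3.68% and 3.70% in clones 12-1 and 12-3. Over its 513 tested genes the median log2 fold change was -0.61, or 65.5% of wild type, and 453 were below 0. Of them 346 were called (67.4%), 333 lower (64.9%) and 13 higher (2.53%). The median was negative along the whole chromosome, from -0.54 to -0.79 in bins of 20 Mb, the last of these from a bin of 8 genes. The shift and the genotype cannot be told apart here, since both knockout clones carry it and no wild-type clone does.

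**Figure D4:**
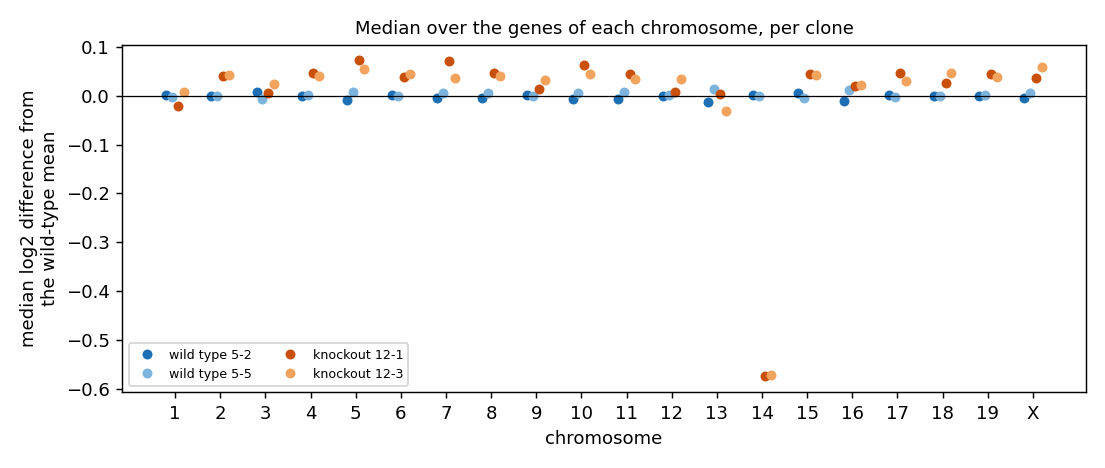
Median log2 difference from the wild-type mean over the genes of each chromosome whose mean log2 CPM reached 1, for each of the 4 clones. Both knockout clones lie at about -0.57 on chromosome 14, and all other medians lie between -0.0314 and 0.0722.

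**Figure D5:**
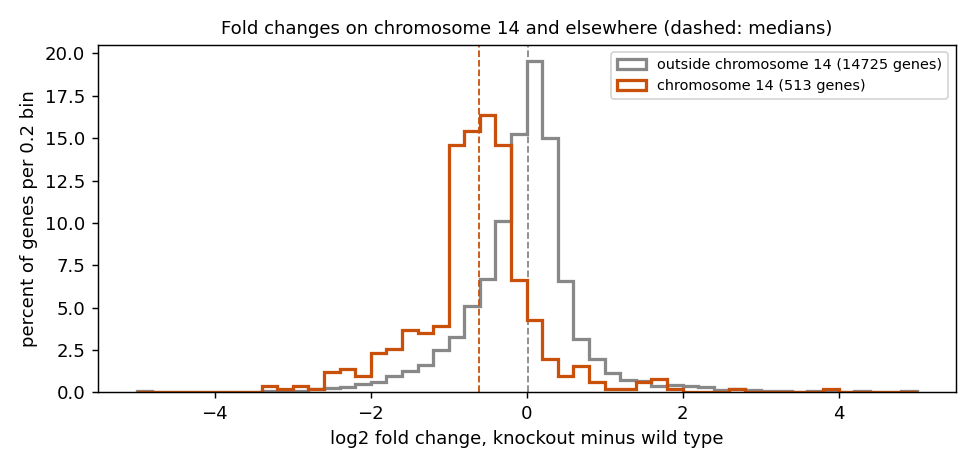
Distribution of log2 fold changes (knockout minus wild type, percent of genes per bin of 0.2) for 513 tested genes on chromosome 14 and 14725 elsewhere. The dashed medians lie at -0.61 and 0.01, so the whole distribution of chromosome 14 is displaced to lower values.

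Against the median shift of the chromosome, 109 of the 513 genes were called above it (21.2%) and 92 below it (17.9%). The count was 71 without clone 5-2, 96 without clone 12-1 and 113 without clone 12-3, above and below together. Without the filter on low counts the median shift was -0.54, and 73 genes were above it and 112 below it. Arhgef3, a guanine nucleotide exchange factor, was at 18.8 and 20.8 CPM in the wild-type clones and 34.5 and 34.4 CPM in the knockout clones. It stood above the shift by 1.41 on the log2 scale, edgeR adjusted p = 9.83e-05. Lats2, a kinase of the Hippo pathway, was at 7.29 and 8.28 CPM in the wild-type clones and 12.99 and 12.3 CPM in the knockout clones. It stood above that shift by 1.31 on the log2 scale, edgeR adjusted p = 0.000571, while its call as higher than wild type had an adjusted p of 0.0837 without clone 5-2 and 0.0596 without clone 12-1. Slc39a14, a zinc and iron importer, was at 74.1 and 81.6 CPM in the wild-type clones and 131 and 119 CPM in the knockout clones. It stood above that shift by 1.30 on the log2 scale, edgeR adjusted p = 0.000295. Tnfrsf19, a receptor of the TNF family, was at 42.3 and 53.2 CPM in the wild-type clones and 76.8 and 73.5 CPM in the knockout clones, with both knockout clones above both wild-type clones. Gata4, a transcription factor of primitive endoderm, was at 7.41 and 7.38 CPM in the wild-type clones and 1.34 and 1.54 CPM in the knockout clones. Its difference from the shift was -1.75 on the log2 scale, edgeR adjusted p = 0.00428. Ndrg2 was at 21.2 and 20.9 CPM in the wild-type clones and 4.32 and 4.05 CPM in the knockout clones. Its difference from the shift was -1.72 on the log2 scale, edgeR adjusted p = 0.00106. Gch1, the first enzyme of tetrahydrobiopterin synthesis, and the peptide transporter gene Slc15a1 were at 0.773 and 0.627 CPM and 2.96 and 3.35 CPM in the knockout clones, against 4.29 and 2.68 CPM and 15.6 and 13.001 CPM in wild type. Both fell beyond the shift of their chromosome in both clones. This was a condition for naming the genes furthest from the shift, so it is no added evidence.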

How the data were processed

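Total RNA of 8 libraries was measured by stranded, ribosomal RNA-depleted RNA-seq. The authors aligned reads to mm10 with STAR 2.7.8a, per the submitters' processing notes, and deposited counts per gene made with featureCounts (2.0.1 per the file header, 2.0.10 per the notes). Reads were counted by exon and gene name on the reverse strand, and a read overlapping several genes was counted for each, per the file header. Here the 26 libraries were summed by clone, where clones 14-1-10 and 14-11 of the ERR gamma group had only 1 library each. The 14 clones of 7 groups were fitted with edgeR 4.0.16 in R 4.3.3 (filterByExpr, TMM, robust quasi-likelihood F test, Benjamini-Hochberg adjustment over all tested genes), so that the groups share 1 estimate of spread. Genes were called at an adjusted p below 0.05, and SE is the log2 fold change divided by the square root of F. Chromosome 14 genes were also tested with the median shift of that chromosome as an offset. The scripts were tested on simulated data.

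With 2 clones per group, totals of 44563139 to 47800233 counts per clone limit counting error, not the spread between clones, and p-values measure only the spread between these clones. Library numbers count libraries within a clone. Differences between library 1 and library 2 correlated at 0.134 to 0.473 over the 6 pairs of clones (6019 genes with log2 CPM of at least 5), a hint from the data that the numbers mark something shared. Named genes were Esrrb, up to 6 called members of each list described with the smallest p, up to 3 on chromosome 14, ranks 11 to 25 by fold change per direction outside chromosome 14, and on it the 8 furthest above and the 8 furthest below its median. The ranked genes were called, had a mean log2 CPM of 1 or more and clones that did not overlap between groups, and predicted genes and ribosomal RNA were passed over. The genes furthest from the median of chromosome 14 met the same conditions, with call and overlap taken against its median shift. The members and gene lists were chosen with earlier results of these data known, and no list was tested as a set. Alternatives were RLE scaling, TMM without chromosomes 6, 8 and 14, no filter, DESeq2 1.42.0, only the 4 clones, each clone left out, and the 8 libraries as units.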

Additional observations from a re-analysis of the deposited data

How the results depend on the processing

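The number of genes called moved most with the samples that entered the fit. Leaving out 1 clone gave 2283 to 4655 genes called in all, 2000 to 4351 outside chromosome 14, 273 to 304 on chromosome 14, and 71 to 155 chromosome 14 genes called against the median shift of that chromosome. In these fits the remaining clone of a group was assumed to vary like the other groups. With the 8 libraries as units and the replicate block, 8950 genes were called in all, 8550 outside chromosome 14, 400 on it and 314 against its median shift. The pairing by library number changed little, since without the block the counts were 8913, 8513, 400 and 313. Libraries of 1 clone are not independent, so these larger counts measure the spread within clones. RLE scaling, TMM without chromosomes 6, 8 and 14, no filter, DESeq2 and a fit of the 4 clones kept all 4 counts within 1.5 times, and they moved the median of all tested genes by less than 0.1. edgeR and DESeq2 each called 201 chromosome 14 genes against the median shift, and 194 were called by both. Leaving out chromosomes 6, 8 and 14 left 4846 genes called. The shorter motif AAGGTCA was in the promoters of 4.66% of genes called lower, 3.81% called higher and 4.14% not called. Of 142 genes whose values are given, none changed direction under the alternatives that gave it a value. Otx1 had none in the fits with the 8 libraries as units. The call of Clec2d was lost with DESeq2, that of Rhox5 without the filter, and 3 to 7 calls when 1 clone was left out.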

Other observations

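Hypoxia-response genes were called in both directions. Of 23 tested members outside chromosome 14, 6 were called higher and 6 lower. Vegfa, the main vascular growth factor, was at 33.3 and 20.1 CPM in the wild-type clones and 6.87 and 5.88 CPM in the knockout clones (log2 fold change -2.07 ± 0.32 (SE), edgeR adjusted p = 0.00107), and Car9, a carbonic anhydrase, fell by 2.10 on the log2 scale. Ndrg1 and the histone demethylase gene Kdm3a rose, with log2 fold changes of 1.15 and 0.97. With any 1 clone left out, 4 to 5 were called higher and 4 to 5 lower. Of 21 tested developmental factors of the T-box, LIM, sine oculis and Otx families, 7 were called lower and 1 higher (median -0.69). The number called lower was 2 without clone 5-2, 3 without clone 5-5, 1 without clone 12-1 and 1 without clone 12-3. Otx1 was at 0.499 and 0.391 CPM in the wild-type clones and 0.0910 and 0.0865 CPM in the knockout clones (log2 fold change -2.29 ± 0.47 (SE), edgeR adjusted p = 0.00368).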
